A study of Mus musculus with 30 samples.

Results

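The BCL2 family decides whether the outer membrane of the mitochondrion is opened during apoptosis, and 10 of its genes were followed here through the stages of an experimental breast cancer. The members were found by gene symbol in the deposited expression table. They were Bcl2, Bcl2l1, Mcl1, Bcl2l11, Bax, Bak1, Bbc3, Pmaip1, Bid and Bad, each found as 1 row among 49315 genes, and all 10 passed the filter on low counts that kept 17774 genes.

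Bulk RNA sequencing was carried out on 4T1 cells, a mammary carcinoma line derived from a BALB/c mouse, that carried the red fluorescent protein tdTomato. The cells were grown in female hosts of 2 kinds: BALB/c mice, which match the line and have an intact immune system, and NSG mice, which lack T, B and natural killer cells. There were 6 groups of 5 libraries, 30 in all. Mammary tumours came from 200000 cells placed in the fat pad and were collected on days 21 and 22 in BALB/c hosts and on day 10 in NSG hosts. Lung samples came from 500000 cells injected through the tail vein: those labelled DTC were taken on day 7 in both strains, and those labelled macro-met on days 21 and 23 in BALB/c and on days 19 and 20 in NSG hosts. Every library came from enzymatically dissociated tissue sorted for tdTomato fluorescence, absence of the leukocyte marker CD45 and exclusion of the dye DAPI, so cells whose membrane had already failed were removed before RNA was extracted. Route of injection, organ and cell number changed together between tumour and lung, and the day differed between strains for tumours and macro-mets, so these factors cannot be told apart. No treated or apoptosis-induced group was among the samples, and the same tagged line was used throughout. The labels do not say whether each library is a separate animal, so the p-values measure the spread between these samples.

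Members of this family fall into 3 classes. The anti-apoptotic guards (here Bcl2, Bcl2l1, which encodes Bcl-xL, and Mcl1) bind and restrain the others. The effectors Bax and Bak1 form the pore that releases cytochrome c, after which the apoptosome activates caspases. The BH3-only proteins carry the stress signal: Bcl2l11 (Bim), Bbc3 (Puma), Pmaip1 (Noxa), Bid, which is cut by caspase-8 below death receptors such as Fas, and Bad, which is switched by phosphorylation. Much of their control acts on the proteins, which were not measured, and gene-level counts do not separate splice forms such as those of Bcl2l1, Bcl2l11 and Mcl1.

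Total counts ran from 29832098 to 65621525 per library. The epithelial keratin gene Krt8 had group medians of 2770 to 4341 CPM (counts scaled to library size), and Ptprc, which encodes CD45, did not exceed 6.59 CPM in any library. Of 7 epithelial markers of the tumour cells, Krt8 among them, 4 were higher and 0 lower in BALB/c DTC than in BALB/c tumours. In NSG DTC against tumours 1 was higher and 3 lower. From DTC to macro-met 5 fell and 0 rose in each strain. Against tumours 4 fell in BALB/c and 7 in NSG macro-mets, and 0 rose. In BALB/c against NSG hosts 4 were lower in tumours and 5 higher in DTC. Markers of lung epithelium summed to 149 to 3585 CPM in BALB/c DTC libraries, with replicates 1 and 2 highest, against 17.2 to 93.7 CPM in the other 25. All 12 of these markers were higher in BALB/c DTC than in BALB/c tumours and than in NSG DTC, and 9 were higher in NSG DTC than in NSG tumours. Of 10 endothelial markers, 10 rose in BALB/c DTC and 8 in NSG DTC against tumours, and of 8 fibroblast markers 6 and 4 fell. From DTC to macro-met 4 of the 8 fibroblast markers rose and 0 fell in each strain. Of 10 macrophage markers, 5 were higher in NSG macro-mets than in NSG tumours, 2 were higher in BALB/c macro-mets than in BALB/c tumours, and 0 were lower. Of 8 neutrophil markers tested, 6 were higher in BALB/c than in NSG DTC. Their part in the members' results was not tested beyond the covariate for lung epithelial and endothelial markers used below. Mean log2 CPM of the lung epithelial markers was -2.74 to -1.81 in tumour libraries and 0.50 to 6.86 in DTC libraries. The covariate therefore moved with stage, and a call lost with it does not show that lung RNA made the difference. BALB/c tumour replicate 4 and NSG macro-met replicate 3 had the most muscle marker RNA of their groups. In bulk samples a smaller number of cells and less RNA per cell cannot be told apart. A trend with base composition also separated the groups: the rank correlation across genes between a library's deviation from the mean and exonic GC content was -0.59 to -0.31 in NSG DTC libraries and -0.09 to 0.44 in BALB/c DTC libraries. For macro-mets it lay between 0.06 and 0.39 (BALB/c) and between 0.19 and 0.40 (NSG), and for tumours between -0.27 and -0.11 (BALB/c) and between -0.20 and 0.03 (NSG). Among the members, Bbc3 and Bax lie at the 99.4th and 99.0th percentile of tested genes for GC content, Bad and Bak1 at the 87.4th and 87.3rd, and Bcl2l1 at the 82.2nd. Mcl1, Bcl2l11 and Bcl2 lie at the 44.3rd, 40.8th and 31.3rd. The same correlation with exonic length was 0.08 to 0.25 in NSG DTC and -0.20 to -0.07 in BALB/c DTC libraries. In the other groups it lay between -0.18 and 0.13. For length, Bcl2 and Bcl2l11 lie at the 90.3rd and 86.1st percentile, and Bcl2l1, Bid and Mcl1 at the 61.4th, 48.4th and 46.5th. Bad, Bak1, Bbc3 and Bax lie at the 33.4th, 31.0th, 26.5th and 18.4th. For these markers or the GC trend 5 libraries were taken as standing apart. They were BALB/c tumour replicate 4, BALB/c DTC replicates 1 and 2, NSG DTC replicate 3 and NSG macro-met replicate 3. Without them the counts of members called were the same in 9 of the 12 comparisons made below. The other 3 are given with their genes. BALB/c DTC replicate 5 was not in this set, although its GC correlation of 0.44 was the highest of any library. The next highest in its group was 0.19. Between DTC of the 2 strains 7 members were called, also without the set, but 4 without BALB/c DTC replicate 5 alone. The stability in 9 comparisons therefore does not cover that library. A second fit of every comparison carried offsets for GC content and exonic length, and its values are given with the members' results and the lists' counts. Whether such offsets also remove real differences was not tested.

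Levels of different genes were compared on the deposited TPM scale (transcript abundance corrected for gene length and depth). Mcl1, Bax and Bak1 were the 3 most abundant transcripts in all 6 groups. In BALB/c tumours Bax stood at 125 ± 21.8 TPM, Bak1 at 124 ± 29.3 and Mcl1 at 118 ± 18.8 (mean ± SD, n = 5), and these 3 ranges overlapped. Mcl1 led in NSG DTC with 213 ± 32.2 TPM, and its lowest library lay above the highest library for Bak1 (137 ± 7.10). In BALB/c DTC the order was headed by Bak1 at 217 ± 22.8 TPM, ahead of Bax at 194 ± 10.6 and Mcl1 at 179 ± 13.2, with overlap between neighbours. Bad and Bcl2l1 took the next places in every group but NSG tumours, where Bbc3 (40.2 ± 6.45 TPM) lay level with Bcl2l1 (39.0 ± 4.27). Bcl2l1 ranked above Bad in the macro-mets of both strains and below it in the other 4 groups, except that Bbc3 stood between them in NSG tumours; of these 6 orders, all but that of NSG DTC were free of overlap between Bad and Bcl2l1. Bcl2, the gene that names the family, was the least abundant of the 3 guards throughout, from 10.8 ± 3.46 TPM in BALB/c DTC to 24.5 ± 7.37 TPM in BALB/c tumours.

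**Figure D1:**
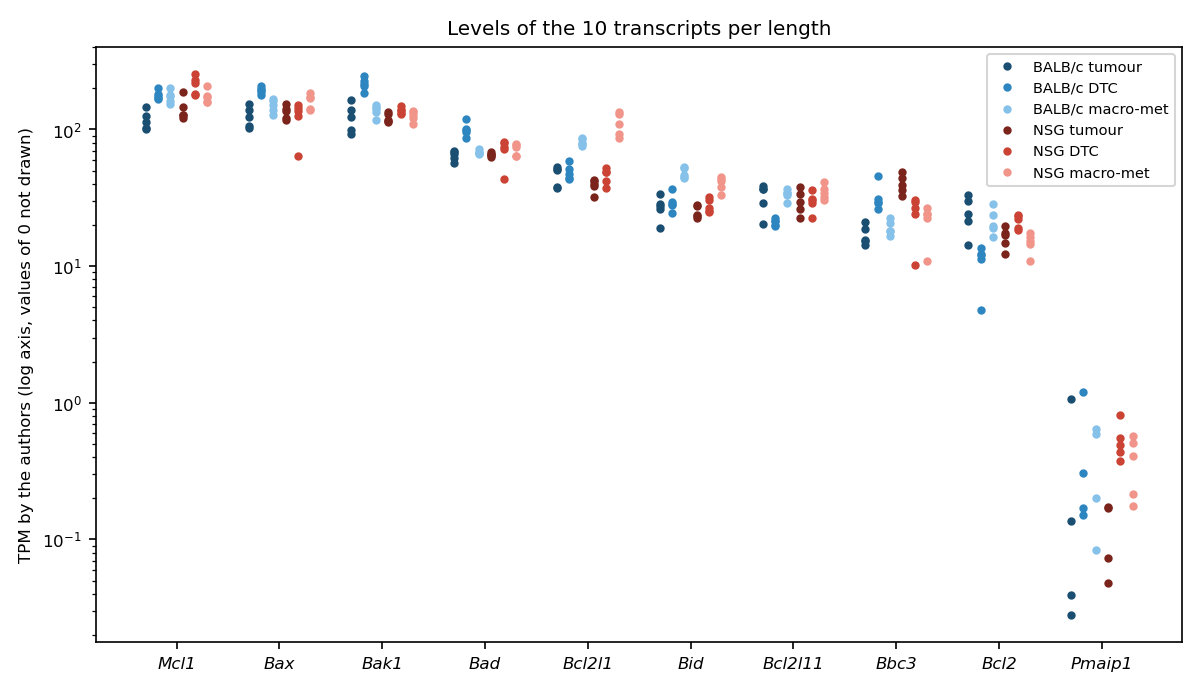
Deposited TPM of the 10 genes (log axis) in each of 30 libraries, coloured by group; genes are ordered by their mean. Mcl1, Bax and Bak1 lie highest, and Pmaip1 lies far below the other 9 genes, with values of 0 left out of the plot.

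Pmaip1, which encodes the BH3-only protein Noxa, was close to the limit of detection. Its raw counts were 0, 2, 1, 53 and 8 in BALB/c tumours, 47, 6, 0, 12 and 10 in BALB/c DTC, and 0, 5, 19, 33 and 11 in BALB/c macro-mets. In NSG hosts they were 3, 5, 0, 3 and 8 in tumours, 40, 24, 28, 18 and 14 in DTC, and 9, 22, 33, 17 and 8 in macro-mets. Tumour replicate 4 and DTC replicate 1 held most of the counts of their BALB/c groups, and edgeR called the gene in none of the 12 comparisons. The 5 NSG DTC libraries all lay above the 5 NSG tumours; limma-voom, a fit of the 2 groups alone and both log2 TPM scales called that difference, while edgeR over all groups gave an adjusted p of 0.131. Without BALB/c tumour replicate 4, the BALB/c DTC difference from tumours was called (adjusted p = 0.0447 by edgeR). No fold is given for a gene with so few counts.

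Shares of family mRNA were taken from TPM summed over the 10 genes, and are given without a test. Guards made up 28.7 ± 1.70% in BALB/c DTC and 40.5 ± 4.72% in NSG DTC (mean ± SD, n = 5), the lowest and the highest of the 6 groups, and the ranges of these 2 groups (26.6 to 31.2% and 35.9 to 47.8%) did not overlap. Effectors showed the reverse, with 49.3 ± 1.18% in BALB/c DTC and 37.6 ± 3.44% in NSG DTC. The other groups lay between 32.0 ± 2.95% (NSG tumours) and 39.7 ± 3.51% (NSG macro-mets) for guards. Within the guards, Mcl1 supplied most of the mRNA in every group. Bcl2l1 supplied 16.5 ± 2.47% of guard mRNA in NSG DTC but 36.6 ± 3.59% in NSG macro-mets, and 20.5 ± 2.79% against 29.4 ± 3.03% in the corresponding BALB/c groups. The ratio of Bax to Bcl2 TPM was 5.64 ± 2.29 in BALB/c tumours and 20.6 ± 10.6 in BALB/c DTC, the latter ranging from 14.5 to 39.4, and 5.98 ± 2.01 in NSG DTC. The GC and length trends described above also separated DTC of the 2 strains. NSG DTC and NSG macro-mets did not overlap in the GC trend, and their guard shares were 40.5% and 39.7%. Because these groups also differed in stage and day, the pair cannot show what part the trends had. The part of these trends in the shares was not tested.

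**Figure D2:**
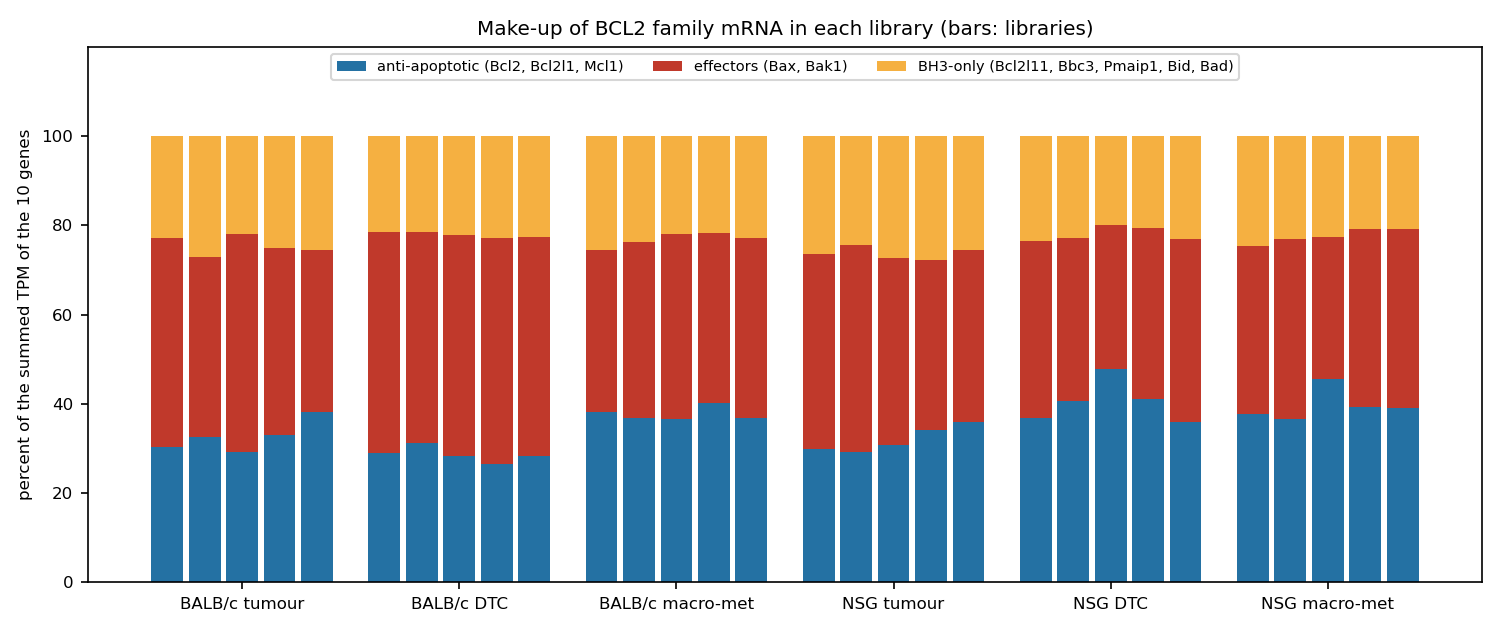
Percent of the summed TPM of the 10 genes held by guards, effectors and BH3-only genes, 1 bar per library, 5 libraries per group. The 5 BALB/c DTC bars have the tallest effector segments (47.4 to 50.6%), apart from tumour libraries that reach 48.7%, and NSG DTC bars have guard segments of 35.9 to 47.8%.

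Promoter windows, the 250 bases before annotated starts, were available from RefSeq (GRCm38.p6) for 9 of the 10 members, 15 windows in all. The median GC content was 64.4% in the member windows and 52.4% in 32851 windows of all genes, and the median number of CpG dinucleotides was 21 against 6. Both strands were searched for 6 motifs: GGGCGG (the Sp1 box, in 10 of 15 member windows and 32.7% of all windows), CACGTG (an E-box, 2 and 6.02%), ACGTG (the hypoxia core, which also lies within the E-box, 2 and 16.6%), AGAACA (a glucocorticoid half-site, 0 and 16.1%), TTCNNNGAA (a STAT site, 0 and 7.02%) and TGACGTCA (a CRE, 0 and 1.55%). A motif that was not found is only absent as these letters in these windows. Printed next are 4 windows, each on the minus strand and 5′ to 3′, of the members that the stage comparisons turn on: Bcl2 and Bax, which moved in opposite directions in BALB/c DTC, and Bcl2l1 and Bid, which rose in macro-mets of both strains. Capitals mark the Sp1 box and the E-box on either strand; the Bcl2l1 window before its farthest start holds none of the 6.
Bcl2, chr1:106714291-106714540: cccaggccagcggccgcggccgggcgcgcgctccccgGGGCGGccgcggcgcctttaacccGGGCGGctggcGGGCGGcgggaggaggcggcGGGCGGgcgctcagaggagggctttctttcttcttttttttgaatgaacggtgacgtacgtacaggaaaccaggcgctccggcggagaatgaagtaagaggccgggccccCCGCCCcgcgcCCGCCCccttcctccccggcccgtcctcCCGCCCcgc
Bcl2l1, chr2:152831729-152831978: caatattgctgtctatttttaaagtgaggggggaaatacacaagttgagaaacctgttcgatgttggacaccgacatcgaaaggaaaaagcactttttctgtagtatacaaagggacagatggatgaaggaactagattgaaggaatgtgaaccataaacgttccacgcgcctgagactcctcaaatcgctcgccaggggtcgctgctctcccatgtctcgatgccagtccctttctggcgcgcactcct
Bax, chr7:45466899-45467148: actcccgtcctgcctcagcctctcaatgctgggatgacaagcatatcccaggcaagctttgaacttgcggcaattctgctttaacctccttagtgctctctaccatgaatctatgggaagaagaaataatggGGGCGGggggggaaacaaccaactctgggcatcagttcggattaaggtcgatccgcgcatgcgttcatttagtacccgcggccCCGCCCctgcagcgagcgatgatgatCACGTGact
Bid, chr6:120916825-120917074: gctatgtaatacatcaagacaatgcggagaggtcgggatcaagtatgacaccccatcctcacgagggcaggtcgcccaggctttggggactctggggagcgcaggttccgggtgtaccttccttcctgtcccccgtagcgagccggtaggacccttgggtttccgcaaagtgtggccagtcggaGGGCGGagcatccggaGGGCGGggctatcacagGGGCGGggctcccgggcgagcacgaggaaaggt

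The windows of Bcl2 and Bid, at 74.8% and 63.6% GC with 36 and 18 CpG dinucleotides, held 7 and 3 Sp1 boxes. That of Bax, at 54.0% GC with 14 CpG, held 2 Sp1 boxes and 1 E-box near its 3′ end. The printed Bcl2l1 window had 47.6% GC and 12 CpG. Bbc3, whose 3 windows had 72.4 to 81.6% GC, was the other member with an E-box.

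Between-stage and between-strain differences were tested with edgeR's quasi-likelihood test over all 17774 genes, and a gene was called where the Benjamini-Hochberg adjusted p was under 0.05; log2 fold changes are on TMM-scaled counts and given with their standard error. In BALB/c hosts, DTC cells differed from tumour cells in 7 of 10 members, against 41.4% of all genes tested. The effectors Bax and Bak1, the BH3-only genes Bbc3 and Bad, and the guard Mcl1 were higher (5 genes; 20.4% of all genes were called higher), while the guard Bcl2 and the BH3-only gene Bcl2l11 were lower (2 genes; 21% of all). The median log2 fold change of the 10 members was 0.54, against -0.09 over all genes. All 7 calls were kept with the GC and length offsets.

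From BALB/c DTC to BALB/c macro-met, a comparison that shares the DTC libraries with the one before, effectors fell and 2 guards rose. Of the 10 members 8 were called, against 30.8% of all genes: Bcl2, Bcl2l1, Bcl2l11 and Bid were higher (16.6% of all), and Bax, Bak1, Bbc3 and Bad were lower (14.2%). Again all 8 were kept with offsets. Compared directly with tumours, BALB/c macro-mets differed in 3 members (37.8% of all genes), with Bcl2l1, Mcl1 and Bid higher (19.6% of all), and the same 3 were called with offsets. For the other 7, macro-met and tumour ranges overlapped.

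The same stages were compared in NSG hosts, which lack lymphocytes. NSG DTC differed from NSG tumours in 2 members (25.5% of all genes): Mcl1 was higher (16% of all) and Bbc3 lower (9.55%). From DTC to macro-met 4 members rose, Bcl2l1, Bcl2l11, Bax and Bid, against 43.7% of all genes called (21.3% higher). Macro-mets compared with tumours had higher Bcl2l1 and Bid and lower Bbc3, 3 members against 30.5% of all genes (16.9% higher, 13.6% lower). The offsets left Mcl1 (DTC against tumour) and Bax (macro-met against DTC) without a call and added Bcl2l11 (-0.53, adjusted p = 0.00595) to the first comparison and lower Bak1 and Bbc3 to the second.

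**Figure D3:**
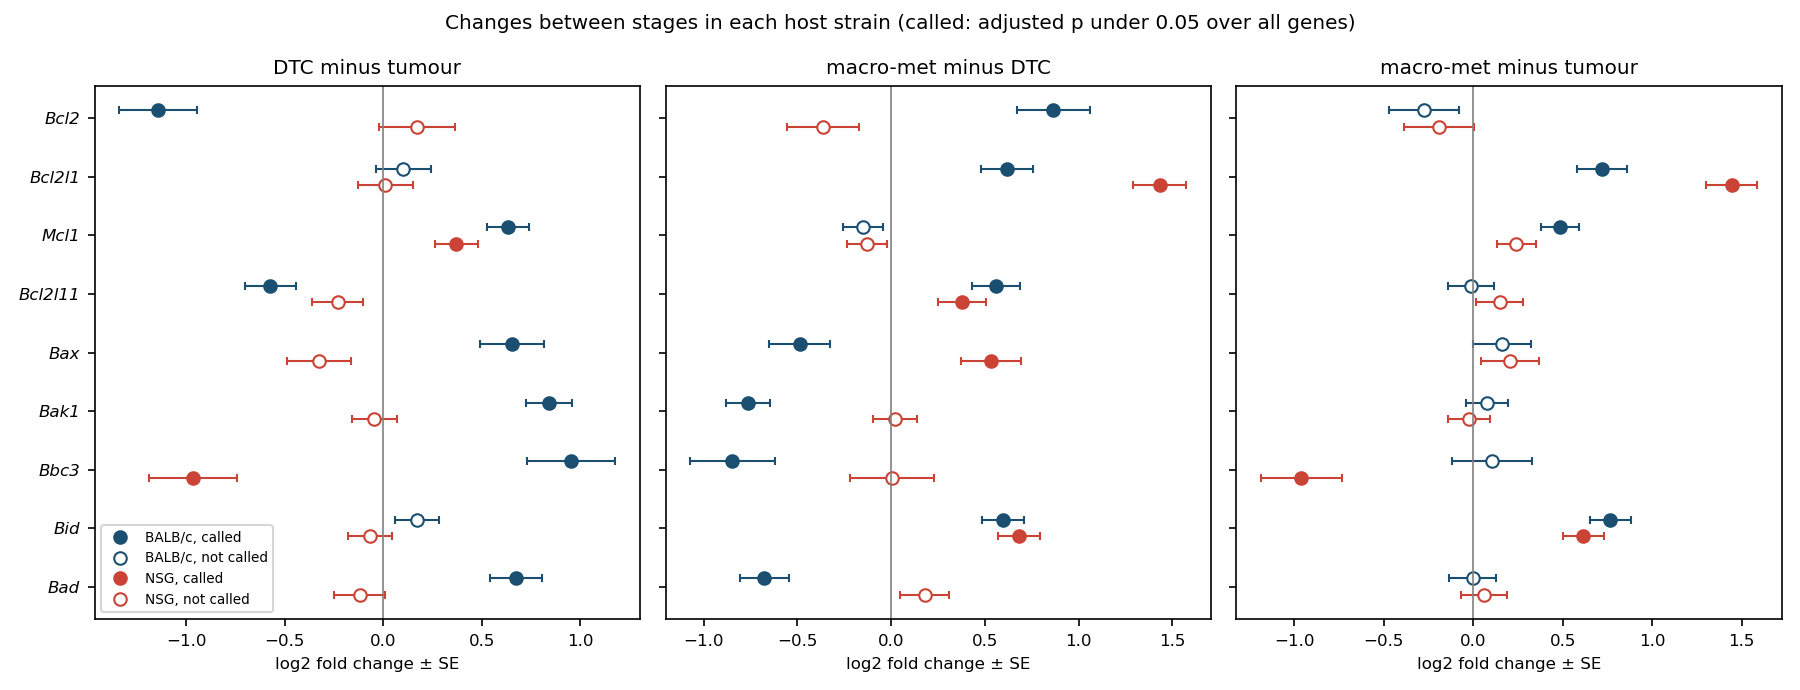
Log2 fold change ± SE of 9 members between stages, BALB/c in blue and NSG in red, with filled points for an adjusted p under 0.05; Pmaip1 is left out for its low counts. From DTC to macro-met both colours lie right of 0 for Bcl2l1 and Bid, and for Bbc3 from tumour to DTC they lie on opposite sides.

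Between strains, tumours differed in 2 members, Bcl2 higher and Bbc3 lower in BALB/c (23.6% of all genes; 11% higher, 12.6% lower). DTC samples differed in 7 (38.8% of all genes; 17.1% higher, 21.7% lower), with Bcl2 lower and Bcl2l1, Bax, Bak1, Bbc3, Bid and Bad higher in BALB/c, but only 3 of these 7, Bax, Bak1 and Bad, were called with the offsets. Macro-mets differed in 0 members by edgeR and by limma-voom, against 2.64% of all genes (1.88% higher and 0.76% lower in BALB/c); 3 members had an unadjusted p under 0.05 (edgeR), and DESeq2 called 1, Bcl2l1.

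Mcl1 (chr3:95658788-95663176, plus strand, GRCm38 with GENCODE M21) protects many cell types from apoptosis and is a short-lived protein, so that its supply depends on continued transcription. Its values in BALB/c hosts were 158, 137, 140.1, 145 and 185 CPM in tumours, 233, 256, 229.7, 237 and 232 in DTC and 206, 204, 218, 229 and 214 in macro-mets, listed, as for each gene, in replicate order. In NSG hosts they were 178, 159.8, 162, 189 and 233 CPM in tumours, 206, 226, 263, 285 and 213 in DTC and 194, 209, 257, 236 and 195 in macro-mets. Every BALB/c lung library, early or late, lay above every BALB/c tumour, whereas the NSG groups overlapped. The log2 fold change was 0.63 ± 0.11 (adjusted p = 2.38e-05) for BALB/c DTC and 0.48 ± 0.11 (adjusted p = 0.000744) for BALB/c macro-mets against tumours, or 1.55-fold and 1.40-fold. From DTC to macro-met Mcl1 was not called in either strain (-0.15 ± 0.11 in BALB/c, -0.13 ± 0.11 in NSG). The rise in NSG DTC was 0.37 ± 0.11 (adjusted p = 0.0101). It was 0.27 (adjusted p = 0.0729) with offsets, and the call was lost without NSG tumour replicate 2 (0.30, adjusted p = 0.0635), NSG tumour replicate 3 (0.30, adjusted p = 0.0656), NSG DTC replicate 3 (0.31, adjusted p = 0.0581) or NSG DTC replicate 4 (0.26, adjusted p = 0.10). The call for this rise was also lost with the marker covariate (0.30, adjusted p = 0.320) and with only the 2 groups in the edgeR fit (0.30, adjusted p = 0.0562). The difference between strains in this rise was not called (0.26 ± 0.15, adjusted p = 0.191). Against NSG tumours, NSG macro-mets stood at 0.24 ± 0.11 (adjusted p = 0.0871), called without NSG tumour replicate 5 (0.31, adjusted p = 0.0333). BALB/c tumours against NSG tumours gave -0.27 ± 0.11 (adjusted p = 0.067), called with offsets (-0.32) and without BALB/c tumour replicate 5 (-0.35, adjusted p = 0.0242).

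**Figure D4:**
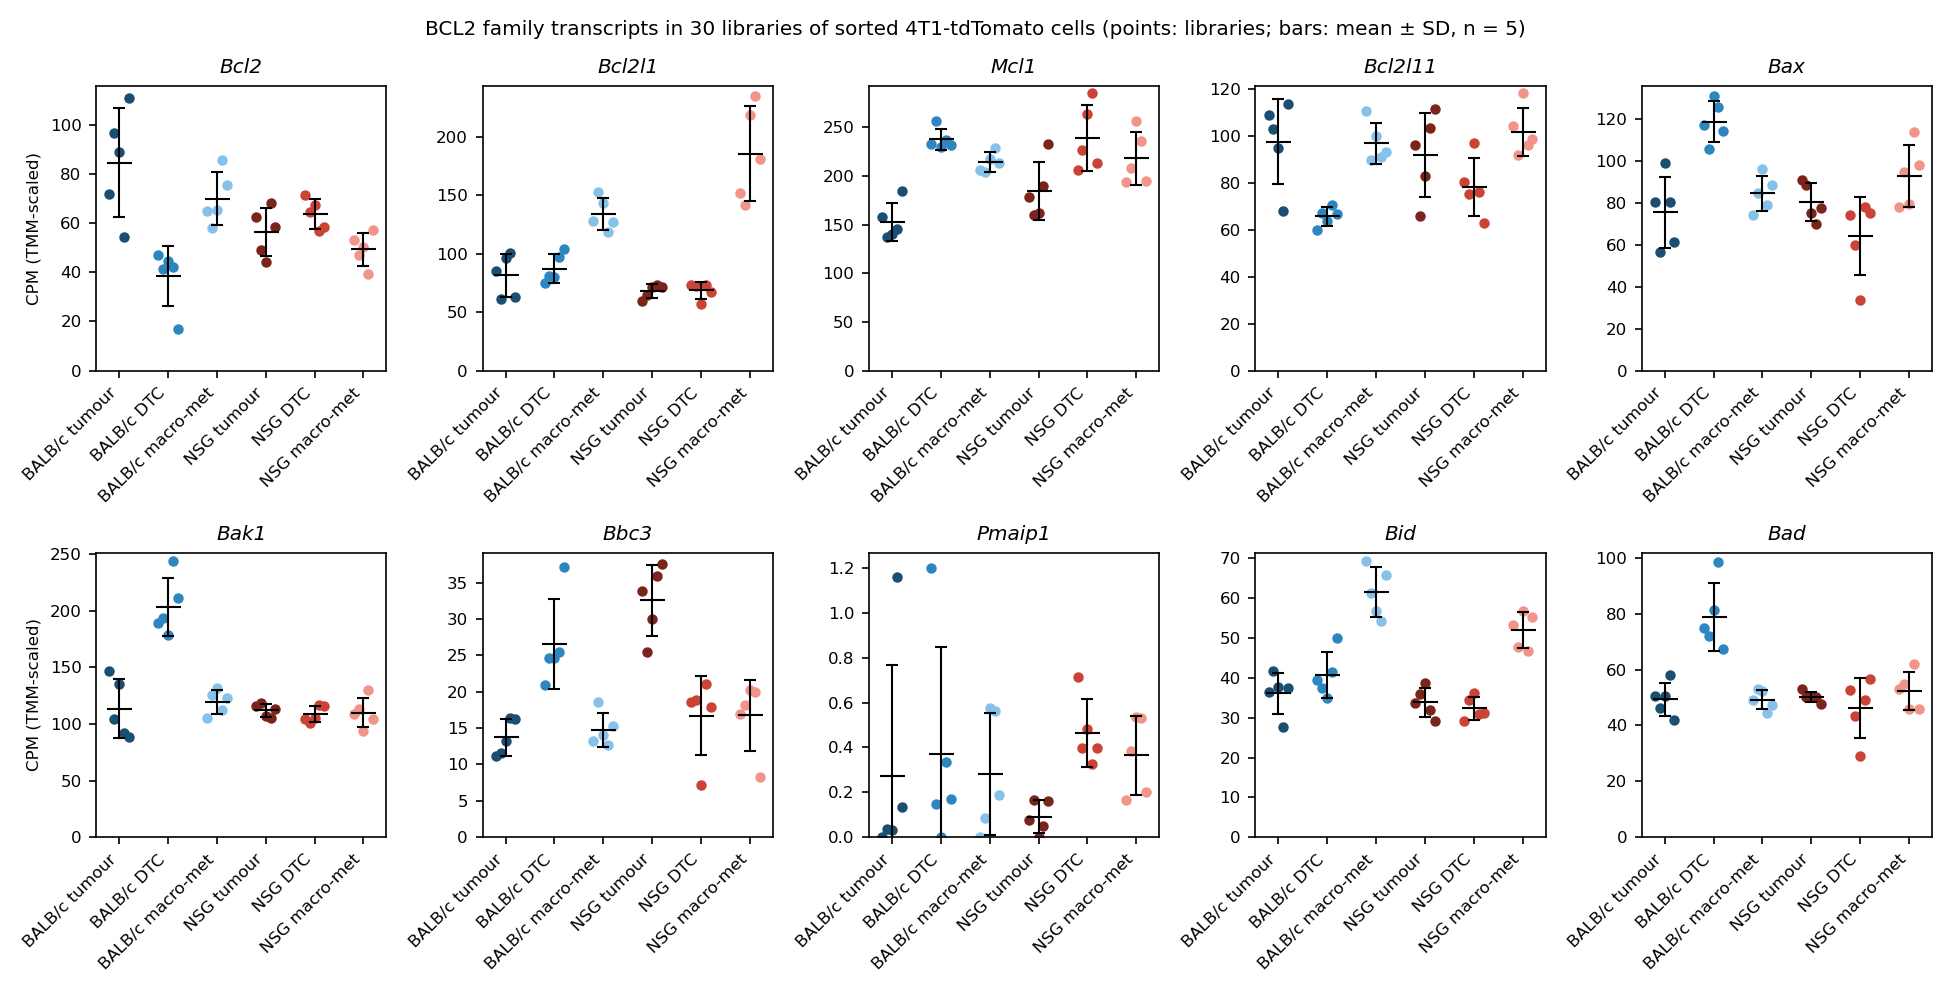
TMM-scaled CPM of each member in the 30 libraries (points), with the mean and SD of each group of 5 as bars; vertical axes start at 0 and differ between genes. Bcl2l1 and Bid are highest in the macro-mets of both strains, and Bax, Bak1 and Bad are highest in BALB/c DTC.

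Bcl2l1 (chr2:152780668-152831728, minus strand), whose main product Bcl-xL is a long-lived guard, had the greatest called change among the members in NSG hosts. BALB/c libraries held 85.6, 61.4, 96.2, 101 and 63.0 CPM in tumours, 74.8, 80.9, 80.3, 97.0 and 104 in DTC and 128, 153, 143, 119 and 127 in macro-mets. NSG libraries held 59.7, 64.8, 71.5, 73.0 and 71.5 CPM in tumours, 73.6, 72.2, 56.9, 73.7 and 67.1 in DTC and 152, 141, 219, 235 and 181 in macro-mets. All 10 macro-met libraries lay above all 20 tumour and DTC libraries, and tumours and DTC overlapped in both strains. The rise from DTC to macro-met was 2.70-fold in NSG, 1.43 ± 0.14 (adjusted p = 3.6e-09) on the log2 scale, and 1.53-fold in BALB/c, 0.62 ± 0.14 (adjusted p = 0.00103). Against tumours the macro-met difference was 1.45 ± 0.14 (adjusted p = 1.36e-08) in NSG and 0.72 ± 0.14 (adjusted p = 0.000191) in BALB/c. With offsets the rise from DTC to macro-met remained called in both strains (1.04 and 0.58). Tested as a difference between strains (BALB/c minus NSG), the rise differed by -0.82 ± 0.20 (adjusted p = 0.00238) from DTC and by -0.72 ± 0.20 (adjusted p = 0.0263) from tumour; the former was -0.45 (adjusted p = 0.0797) with offsets and the latter -0.73 (adjusted p = 0.0118). The difference from tumour was -0.54 (adjusted p = 0.092) without the 5 libraries that stand apart, and it lost its call when any 1 of 9 libraries was left out: BALB/c tumour replicates 3 and 4, NSG tumour replicates 1 and 2, BALB/c macro-met replicates 1, 4 and 5, or NSG macro-met replicates 3 and 4 (from -0.61 to -0.70). In macro-mets themselves the strain difference was -0.47 ± 0.14 (adjusted p = 0.0635), which became a call without NSG macro-met replicate 2 (-0.55, adjusted p = 0.0289). The higher level in BALB/c than in NSG DTC (0.35 ± 0.14, adjusted p = 0.0479) was 0.03 (adjusted p = 0.883) with offsets, and it kept its call in 3 of 10 fits without 1 library, those without BALB/c DTC replicate 1 or NSG DTC replicate 1 or 4 (0.26 to 0.38 in the 7 others).

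Bcl2 (chr1:106538178-106714274, minus strand), the founding guard, went the other way in the early lung stage of BALB/c hosts. Its values were 71.8, 96.8, 89.1, 54.3 and 111 CPM in BALB/c tumours, 47.0, 41.2, 44.7, 42.1 and 16.9 in DTC and 65.1, 57.9, 65.5, 85.6 and 75.4 in macro-mets. In NSG hosts they were 62.6, 49.1, 44.1, 68.1 and 58.3 CPM in tumours, 71.3, 64.4, 67.3, 56.6 and 58.3 in DTC and 53.2, 47.1, 50.3, 39.4 and 57.2 in macro-mets. The 5 BALB/c DTC libraries lay below all libraries of BALB/c tumours and macro-mets and of NSG DTC, with replicate 5 at 16.9 CPM far below the other 4. Bcl2 was 2.21-fold lower in BALB/c DTC than in tumours (-1.14 ± 0.20, adjusted p = 2.95e-05) and 1.82-fold higher in macro-mets than in DTC (0.87 ± 0.19, adjusted p = 0.00101); with offsets these were -0.92 and 0.83, both still called. NSG values for the same 2 steps were 0.17 ± 0.19 (adjusted p = 0.564) and -0.36 ± 0.19 (adjusted p = 0.132), neither called; with only the 2 groups in the fit the second was called (-0.38, adjusted p = 0.0149). The steps differed between strains by -1.31 ± 0.27 (adjusted p = 0.000428) and 1.23 ± 0.27 (adjusted p = 0.00122), and by -0.64 (adjusted p = 0.0271) and 0.62 (adjusted p = 0.0479) with offsets. Without BALB/c DTC replicate 5 the fall in BALB/c DTC was still called, as it was without any other single library. The lower level in BALB/c than in NSG DTC (-0.73 ± 0.19, adjusted p = 0.00315) was -0.16 (adjusted p = 0.474) with offsets. In tumours Bcl2 was higher in BALB/c (0.58 ± 0.19, adjusted p = 0.0275), a call lost without BALB/c tumour replicate 2 (0.53, adjusted p = 0.0692) or 5 (0.46, adjusted p = 0.102), without NSG tumour replicate 2 (0.54, adjusted p = 0.0658) or 3 (0.51, adjusted p = 0.0746), and on the log2(TPM + 1) scale (0.54, adjusted p = 0.0656).

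Bak1 (chr17:27019810-27029009, minus strand), one of the pore-forming effectors, sits in the outer mitochondrial membrane and was highest in BALB/c DTC. Tumours of BALB/c hosts had 146, 105, 135, 92.3 and 88.1 CPM, DTC 189, 193, 179, 243 and 211 and macro-mets 105, 125, 132, 112 and 123. NSG tumours had 116, 119, 107, 105 and 113 CPM, DTC 104, 101, 106, 117 and 115 and macro-mets 109, 113, 93.9, 129.6 and 105. All 5 BALB/c DTC libraries lay above the other 25, which ranged from 88.1 to 146 CPM. The gene was 1.79-fold higher in BALB/c DTC than in tumours (0.84 ± 0.12, adjusted p = 1.2e-06) and 1.70-fold lower in macro-mets than in DTC (-0.77 ± 0.12, adjusted p = 7.15e-06). Offsets gave 0.59 and -0.70, both called. In NSG hosts neither step was called (-0.04 ± 0.12 and 0.02 ± 0.12), although with offsets the second was -0.38 (adjusted p = 0.0115). BALB/c and NSG DTC differed by 0.90 ± 0.12 (adjusted p = 6.52e-07), or 0.45 (adjusted p = 0.00457) with offsets. The first step differed between strains by 0.89 ± 0.16 (adjusted p = 0.00011) and the second by -0.79 ± 0.16 (adjusted p = 0.000658); with offsets these were 0.50 (adjusted p = 0.0233) and -0.32 (adjusted p = 0.196).

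Bax (chr7:45461697-45466898, minus strand), the partner effector that moves from the cytosol to mitochondria, was also highest in BALB/c DTC. It measured 80.5, 56.8, 98.9, 80.4 and 61.7 CPM in tumours, 117, 106, 131, 126 and 114 in DTC and 74.4, 84.8, 96.3, 79.3 and 88.7 in macro-mets. For NSG hosts the values were 91.2, 88.7, 75.2, 69.9 and 77.8 CPM in tumours, 74.3, 60.0, 33.6, 78.0 and 75.2 in DTC and 78.2, 94.9, 79.5, 114 and 98.1 in macro-mets. BALB/c DTC lay above BALB/c tumours, BALB/c macro-mets and NSG DTC without overlap, and NSG DTC replicate 3 was the lowest of the 30. BALB/c DTC exceeded tumours 1.57-fold (0.65 ± 0.16, adjusted p = 0.00184) and NSG DTC 1.85-fold (0.89 ± 0.16, adjusted p = 6.14e-05); with offsets these were 0.44 (adjusted p = 0.00862) and 0.39 (adjusted p = 0.0257). With the covariate for lung epithelial and endothelial markers, the difference from tumours was 0.73 (adjusted p = 0.0755), not called though no smaller. The later fall in BALB/c, -0.49 ± 0.16 (adjusted p = 0.0212), was -0.38 (adjusted p = 0.0691) on the log2(TPM + 1) scale and lost its call without BALB/c DTC replicate 3 (-0.43, adjusted p = 0.0634), BALB/c DTC replicate 4 (-0.45, adjusted p = 0.054) or BALB/c macro-met replicate 1 (-0.43, adjusted p = 0.0679). In NSG, Bax rose from DTC to macro-met by 0.53 ± 0.16 (adjusted p = 0.00831), which became 0.04 (adjusted p = 0.845) with offsets. The strain difference in the first step was 0.98 ± 0.23 (adjusted p = 0.00135) and kept its call with offsets (0.58); that in the second was -1.02 ± 0.23 (adjusted p = 0.00128) and did not (-0.45, adjusted p = 0.0923).

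Bbc3 (chr7:16308393-16318205, plus strand) encodes Puma, a potent BH3-only protein transcribed in response to p53 and other stress pathways, and it had the largest called strain difference of the members. Values were 11.1, 11.6, 13.2, 16.4 and 16.3 CPM in BALB/c tumours, 20.9, 24.6, 24.7, 25.5 and 37.2 in DTC and 13.2, 18.6, 14.1, 12.7 and 15.3 in macro-mets. They were 33.9, 25.5, 30.0, 36.0 and 37.6 CPM in NSG tumours, 18.6, 18.9, 7.17, 21.0 and 17.9 in DTC and 17.0, 18.2, 20.3, 20.0 and 8.26 in macro-mets. NSG tumours overlapped BALB/c DTC and lay above every library of the other 4 groups, and BALB/c DTC lay above BALB/c tumours and macro-mets. Bbc3 was 2.37-fold lower in BALB/c than in NSG tumours (-1.25 ± 0.23, adjusted p = 0.000129; -1.33 with offsets). It was 1.94-fold higher in BALB/c DTC than in tumours (0.95 ± 0.23, adjusted p = 0.00111) and 1.95-fold lower in NSG DTC than in tumours (-0.97 ± 0.22, adjusted p = 0.00188). The test of that difference gave 1.92 ± 0.32 (adjusted p = 3.27e-05), 3.78-fold, and 1.49 (adjusted p = 3.01e-05) with offsets. BALB/c macro-mets then had 1.80-fold less than DTC (-0.85 ± 0.22, adjusted p = 0.00442), while NSG macro-mets against DTC gave 0.00 ± 0.22 (adjusted p = 0.99), and -0.56 (adjusted p = 0.0105) with offsets. NSG macro-mets were lower than NSG tumours (-0.96 ± 0.22, adjusted p = 0.00166). With the marker covariate the NSG DTC and macro-met differences from tumours were -0.66 (adjusted p = 0.276) and -0.69 (adjusted p = 0.0998). The strain difference in the step from DTC to macro-met (-0.85 ± 0.32, adjusted p = 0.0427) was -0.69 (adjusted p = 0.0695) without the 5 libraries that stand apart and kept its call in 6 of 20 fits without 1 library: those without BALB/c DTC replicate 1, NSG DTC replicate 1, 2 or 4, replicate 2 of BALB/c macro-mets or 5 of NSG macro-mets (-0.87 to -0.66 in the 14 others). That in macro-met minus tumour (1.07 ± 0.32, adjusted p = 0.0433) kept it in 8 of 20, those without replicate 4 or 5 of BALB/c tumours, 2 or 3 of NSG tumours, 4 of BALB/c macro-mets, or 2, 3 or 4 of NSG macro-mets (0.92 to 1.13 in the 12 others), and was 1.25 (adjusted p = 0.00167) with offsets. The higher level in BALB/c than in NSG DTC (0.67 ± 0.22, adjusted p = 0.0171) was 0.17 (adjusted p = 0.518) with offsets, 0.49 (adjusted p = 0.0967) without BALB/c DTC replicate 5 and 0.50 (adjusted p = 0.0547) without NSG DTC replicate 3.

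Bid (chr6:120891930-120916853, minus strand) links death receptors such as Fas to mitochondria, and its transcript, like that of Bcl2l1, was highest in macro-mets. BALB/c tumours had 36.4, 41.6, 37.6, 27.7 and 37.4 CPM, DTC 39.6, 37.3, 34.9, 41.5 and 50.1 and macro-mets 69.4, 61.4, 56.7, 54.2 and 65.9. The NSG groups had 33.7, 36.1, 38.6, 31.8 and 29.2 CPM in tumours, 29.1, 34.5, 36.1, 31.0 and 31.2 in DTC and 53.3, 47.7, 56.7, 46.6 and 55.2 in macro-mets. Macro-mets lay above DTC and tumours of the same strain without overlap, and tumours overlapped DTC. From DTC to macro-met Bid rose 1.51-fold in BALB/c (0.60 ± 0.11, adjusted p = 0.000129) and 1.60-fold in NSG (0.68 ± 0.11, adjusted p = 9.74e-06). Against tumours the values were 0.77 ± 0.11 (adjusted p = 5.65e-06) and 0.62 ± 0.11 (adjusted p = 0.000126). With offsets all 4 differences were called, at 0.55, 0.51, 0.56 and 0.40, and none of the 3 strain differences in steps was called for Bid (0.24, -0.08 and 0.15; adjusted p = 0.269, 0.737 and 0.635). The small excess in BALB/c over NSG DTC (0.33 ± 0.11, adjusted p = 0.0188) was 0.20 (adjusted p = 0.208) with offsets, and the call was lost without BALB/c DTC replicate 5 (0.22, adjusted p = 0.129) or NSG DTC replicate 1 (0.31, adjusted p = 0.0524).

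Bad (chr19:6941861-6951899, plus strand), a BH3-only protein that growth factor signalling holds inactive, was highest in BALB/c DTC, as were both effectors. BALB/c tumours held 50.6, 46.2, 50.5, 57.9 and 41.9 CPM, DTC 75.0, 71.9, 81.4, 98.5 and 67.4 and macro-mets 49.0, 53.2, 52.4, 44.6 and 47.3. NSG tumours held 52.97, 50.2, 50.1, 50.2 and 47.7 CPM, DTC 52.8, 43.5, 29.2, 49.2 and 56.8 and macro-mets 53.02, 55.0, 45.9, 62.0 and 45.9. The 5 BALB/c DTC libraries were the highest of the 30, and the other 5 groups overlapped. The BALB/c DTC level was 1.60-fold that of tumours (0.67 ± 0.13, adjusted p = 0.000133) and 1.70-fold that of NSG DTC (0.77 ± 0.13, adjusted p = 2.36e-05), with offset values of 0.42 and 0.35, both called. Macro-mets were 1.60-fold lower than DTC in BALB/c (-0.68 ± 0.13, adjusted p = 0.000179), against 0.18 ± 0.13 in NSG, not called. The first step differed between strains by 0.79 ± 0.18 (adjusted p = 0.00124), 0.43 (adjusted p = 0.0493) with offsets, and the second by -0.86 ± 0.18 (adjusted p = 0.000882), -0.43 (adjusted p = 0.072) with offsets.

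Bcl2l11 (chr2:128126038-128162547, plus strand) encodes Bim, a BH3-only protein that binds all 3 guards and whose gene is a FOXO target. It had 109, 103, 94.6, 68.0 and 114 CPM in BALB/c tumours, 60.1, 67.1, 63.9, 70.5 and 66.6 in DTC and 110.4, 89.6, 99.9, 90.8 and 92.9 in macro-mets. In NSG tumours it had 96.2, 65.7, 82.8, 103 and 111 CPM, in DTC 80.4, 75.1, 97.1, 76.2 and 62.7 and in macro-mets 104, 91.7, 118, 96.1 and 98.5. BALB/c DTC lay below BALB/c macro-mets without overlap and overlapped tumours through tumour replicate 4 alone. The log2 fold change was -0.57 ± 0.13 (adjusted p = 0.000769) from tumour to DTC and 0.56 ± 0.13 (adjusted p = 0.00137) from DTC to macro-met in BALB/c; with a covariate for lung and endothelial markers these were -0.29 (adjusted p = 0.392) and 0.41 (adjusted p = 0.0925). In NSG the rise from DTC to macro-met was 0.38 ± 0.13 (adjusted p = 0.0185), 0.64 (adjusted p = 0.000445) with offsets and 0.23 (adjusted p = 0.212) on the log2(TPM + 1) scale, and its call was lost without NSG DTC replicate 5 (0.32, adjusted p = 0.0694) or NSG macro-met replicate 3 (0.29, adjusted p = 0.0921). None of the 3 strain differences in steps was called for Bcl2l11 by edgeR over all libraries. That from tumour to DTC was called on the log2(TPM + 1) scale, at -0.56 (adjusted p = 0.0354), on log2(TPM + 0.1), at -0.58 (adjusted p = 0.0357), and by edgeR without BALB/c tumour replicate 4, at -0.46 (adjusted p = 0.0401). The log2(TPM + 1) scale also called DTC between strains, at -0.47 (adjusted p = 0.00962), which edgeR did not (-0.25 ± 0.13, adjusted p = 0.124). NSG DTC against tumours, -0.23 ± 0.13 (adjusted p = 0.204), became a call with offsets (-0.53, adjusted p = 0.00595), without NSG tumour replicate 2 (-0.35, adjusted p = 0.0497) and without the 5 libraries that stand apart (-0.34, adjusted p = 0.0304).

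Tested across strains, the step from tumour to DTC differed in 5 members (33.4% of all genes; 15% higher, 18.4% lower): Bcl2 was lower and Bax, Bak1, Bbc3 and Bad were higher in BALB/c relative to NSG, and all 5 were called with offsets as well. The step from DTC to macro-met differed in 6 (28.1% of all genes; 16.6% higher, 11.6% lower), of which Bcl2 alone was called with offsets. Macro-met against tumour differed in 2, lower Bcl2l1 and higher Bbc3 (5.23% of all genes; 1.7% lower and 3.53% higher). These 3 sets of values share their groups pairwise. Across all genes, offsets changed the share of higher among called genes from 44.9% to 64.5% for the first of these steps, from 58.8% to 44.1% for the second, from 44.2% to 56.9% for BALB/c against NSG DTC, from 62.6% to 30.9% for NSG DTC against tumours, from 48.7% to 59.7% for NSG macro-met against DTC and from 46.7% to 34.7% for tumours between strains. The median over all genes shifted most, by -0.17 on the log2 scale, for NSG DTC against tumours.

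**Figure D5:**
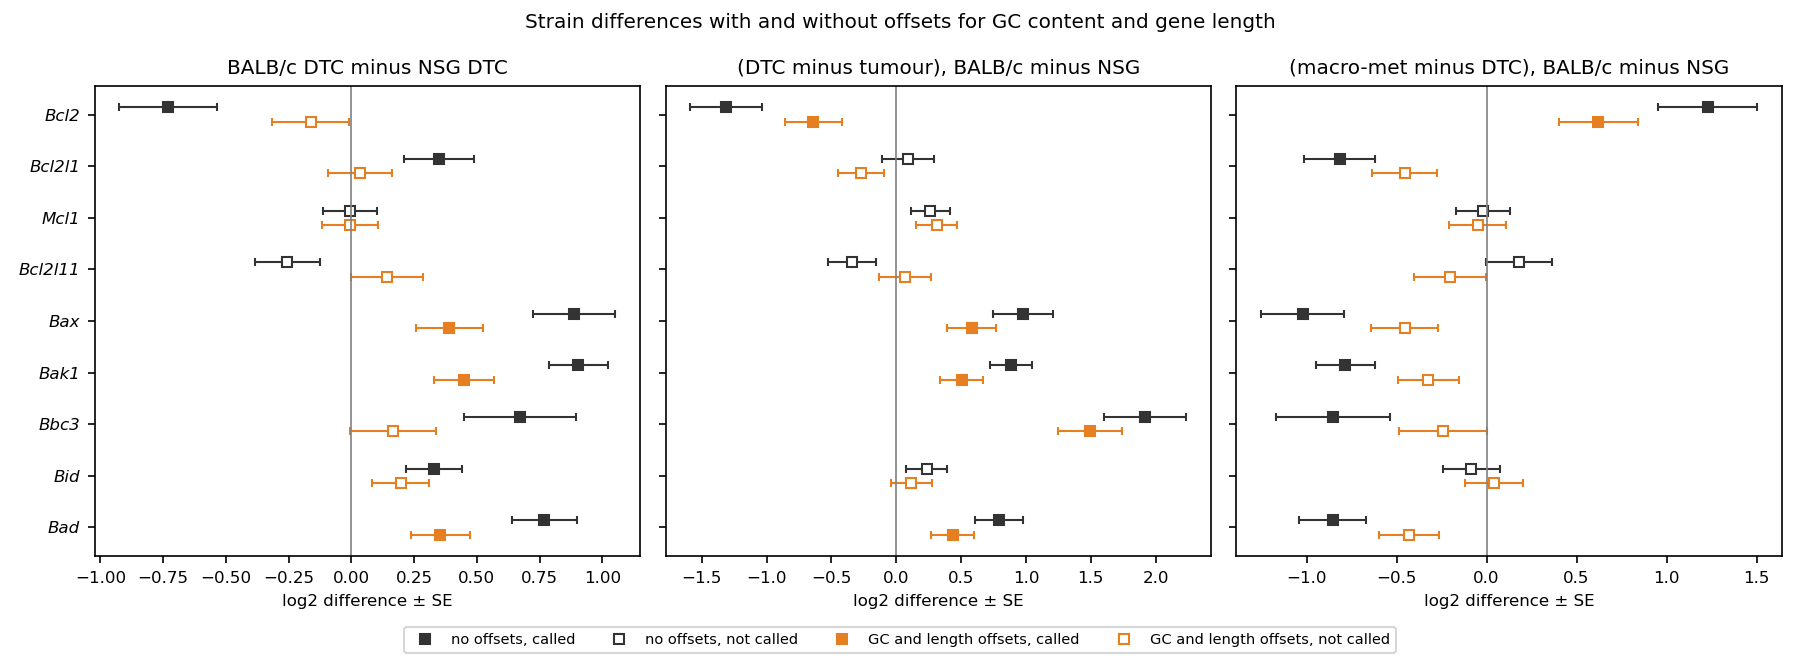
Log2 differences ± SE between strains for 9 members, without (dark) and with (orange) offsets for GC content and exonic length; filled squares mark an adjusted p under 0.05. With offsets the values lie nearer 0 for most called members, and 3, 5 and 1 of them are called from left to right.

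Other genes of the pathway came from 8 textbook lists. Of 13 tested further members of the BCL2 family (15 in the table), 3 rose and 3 fell in BALB/c DTC against tumours (median 0.14, all genes -0.09), and 3 rose and 1 fell from DTC to macro-met (median -0.34, all genes -0.04). Of all genes tested, 20.4% rose and 21% fell in the first of these comparisons, and 16.6% and 14.2% in the second; with offsets the list's counts were 3 and 3, then 3 and 0. Bnip3, a hypoxia-induced mitophagy receptor, was at 54.0 ± 20.9 CPM in BALB/c tumours, 4.57 ± 1.80 in DTC and 73.3 ± 9.71 in macro-mets (mean ± SD, n = 5). It was at 25.5 ± 6.19, 6.26 ± 1.03 and 74.5 ± 49.9 CPM in the corresponding NSG groups. So it fell in DTC of both strains, by -3.56 ± 0.33 (adjusted p = 2.65e-09) and -2.02 ± 0.31 (adjusted p = 2.95e-05), and rose to macro-met by 4.00 ± 0.34 (adjusted p = 6.02e-10) and 3.57 ± 0.33 (adjusted p = 2.19e-09). Bmf, a BH3-only gene of detached cells, fell in DTC of both strains (-1.18 ± 0.20, adjusted p = 2.33e-05 and -0.74 ± 0.20, adjusted p = 0.00559).

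Downstream of the pore, 6 of 14 apoptosome and caspase genes rose and 1 fell in BALB/c DTC against tumours (median 0.27), and in NSG DTC 2 rose and 1 fell (median 0.01, all genes 0.06). With offsets 6 were higher and 1 lower in BALB/c DTC, and 0 higher and 2 lower in NSG DTC. Of all genes, 20.4% rose and 21% fell in BALB/c DTC against tumours (median -0.09), and 16% rose and 9.55% fell in NSG DTC. Cycs, which encodes cytochrome c, went from 71.8 ± 12.5 CPM in BALB/c tumours to 156 ± 19.4 in DTC (1.12 ± 0.12, adjusted p = 7.71e-09) and back to 77.6 ± 4.08 in macro-mets (-1.01 ± 0.12, adjusted p = 7.91e-08). The step of Cycs from tumour to DTC differed between strains (0.89 ± 0.16, adjusted p = 9.81e-05), also with offsets (2.11, adjusted p = 6.89e-08). Of the 4 outer membrane partners, Vdac1, Vdac3 and Mtch2, the last a receptor for Bid's active form, rose in BALB/c DTC (0.52, 0.42 and 0.30); none was called in NSG DTC, where 0 had an unadjusted p under 0.05 in edgeR, though offsets called 2 as lower.

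Among 5 inhibitors of apoptosis, which block caspases, 4 rose in NSG DTC against tumours (median 1.19; 2 with offsets) and 2 rose and 2 fell in BALB/c DTC (median -0.78; the same counts with offsets). The shares of all genes that rose were 16% in NSG DTC and 20.4% in BALB/c DTC, and 9.55% and 21% fell. Birc6 was at 41.5 ± 6.30 CPM in NSG tumours, 173 ± 38.2 in DTC and 19.0 ± 5.29 in macro-mets, and at 65.8 ± 6.00, 38.3 ± 19.6 and 28.3 ± 14.2 in BALB/c. Its step from tumour to DTC differed between strains by -2.84 ± 0.46 (adjusted p = 3.05e-05), and by -1.52 (adjusted p = 0.000466) with offsets. Usp9x, a deubiquitinase that stabilises the Mcl1 protein, was also highest in NSG DTC, with 164 ± 34.1 CPM in NSG DTC, 23.6 ± 3.52 in NSG tumours and 23.2 ± 12.9 in BALB/c DTC. It was 1 of 5 turnover genes, of which 3 rose in NSG DTC and 4 fell in BALB/c DTC against tumours; with offsets 1 and 3 were called. Birc5 (survivin) was higher in BALB/c DTC than in tumours (1.40 ± 0.17, adjusted p = 9.95e-08).

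Genes that p53 induces were called in both directions. In BALB/c DTC against tumours 6 of 17 rose and 5 fell (median 0.25), and in NSG macro-mets against tumours 3 rose and 7 fell (median -0.49, all genes 0.02). All genes stood at 20.4% higher and 21% lower in the former and at 16.9% and 13.6% in the latter; with offsets the list's counts were 6 and 3, then 3 and 7. Cdkn1a, the cell-cycle inhibitor p21, stood at 12.6 ± 2.54 CPM in BALB/c tumours, 60.0 ± 12.3 in DTC and 20.5 ± 3.19 in macro-mets. In NSG it stood at 54.5 ± 6.86, 48.2 ± 7.64 and 21.6 ± 7.81 CPM. Like Bbc3 it was lower in BALB/c than in NSG tumours (-2.12 ± 0.19, adjusted p = 2.36e-09), with a strain difference in the first step of 2.43 ± 0.26 (adjusted p = 2.99e-07). Among 10 transcription factor genes known to induce family members, Foxo1, Foxo3 and Myc rose from DTC to macro-met in BALB/c (1.45, 1.12 and 0.96) and in NSG (1.02, 1.03 and 1.04). Of the 10, 5 rose and 1 fell in BALB/c, where 16.6% of all genes rose, and 7 rose and 0 fell in NSG, where 21.3% rose; with offsets 5 rose and 1 fell in each strain. These lists overlap in function with the members, and nothing particular to them is drawn from the counts.

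Upstream of Bid, Fas, the death receptor named in the study's title, was at 18.1 ± 4.88 CPM in BALB/c tumours against 6.91 ± 1.58 in NSG tumours (1.39 ± 0.23, adjusted p = 3.14e-05) and at 11.7 ± 1.92 against 4.92 ± 1.77 in macro-mets (1.24 ± 0.23, adjusted p = 0.000931). It was the only one of 6 genes of this arm called between strains in either of those 2 comparisons, with offsets too. Between DTC of the 2 strains all 6 were called, 4 higher and 2 lower in BALB/c, where 38.8% of all genes were called; with offsets 2 were higher and 0 lower. Bid showed no call between strains in tumours or macro-mets (0.09 and 0.25; adjusted p = 0.576 and 0.277); in DTC it was higher in BALB/c (0.33 ± 0.11, adjusted p = 0.0188), and 0.20 (adjusted p = 0.208) with offsets.

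For each member the 3 genes with the nearest pattern were found among 8889 candidates by the root mean square (RMS) difference between centred log2 CPM over the 30 libraries, which share depth and GC trend. Bad lay nearest to Psmb5, a proteasome subunit gene (RMS 0.095). Nearest to Bak1 were Timm50 and Timm17b, of the mitochondrial import machinery, and Anapc11 (0.15, 0.15 and 0.16). For Bax they were Cnpy3, Fbl and Mbd3 (0.16, 0.17 and 0.18). Bcl2l11 lay nearest to Spin1 (0.14), Mcl1 to Mcmbp (0.17), Bid to Dtx4 (0.18) and Bcl2 to Rap2c (0.22). Bcl2l1 lay nearest to Mief2, a mitochondrial dynamics gene, Htatip2 and Ccdc32 (0.22, 0.23 and 0.23). For Bbc3 the nearest were the immediate early genes Junb and Maff, and Itpkc (0.25, 0.29 and 0.33). The members' own standard deviations over the 30 libraries were 0.27 (Mcl1) to 0.59 (Bbc3) on the same scale, and for Pmaip1, at 1.43, no candidate came within 1.07. Within groups, the coefficient of variation of CPM for the 9 members other than Pmaip1 ran from 3.75% (Bad in 1 group) to 32.7% (Bbc3 in 1 group), and for Pmaip1 it reached 184%.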

How the data were processed

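RNA was sequenced from 30 sorted 4T1-tdTomato samples, 5 in each of 6 groups, assigned by the labels. Reads were trimmed with Trimmomatic 0.36 and aligned with STAR 2.5.2b to GRCm38, per the submitters' processing notes; the counting tool, strand setting and gene lengths are not given in the sources used here. The authors deposited a raw count and a TPM value per gene and library. Counts were whole numbers, 29832098 to 65621525 per library.

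Counts were fitted with edgeR 4.0.16 (quasi-likelihood, TMM, filterByExpr, all 6 groups, 24 residual degrees of freedom) in R 4.3.3, giving 9 pairwise and 3 strain-by-stage comparisons, each adjusted by Benjamini-Hochberg over 17774 genes. The script was tested on simulated data for BALB/c DTC against tumour, recovering 72% of 2-fold and 31% of 1.5-fold changes. Alternatives were DESeq2 1.42.0, limma-voom (limma 3.58.1), RLE scaling, no filter, the compared groups alone, log2(TPM + 1) and log2(TPM + 0.1), offsets for GC content and exonic length, a lung and endothelium marker covariate, and leaving out libraries. The 10 members and the 8 pathway lists were chosen with earlier results of these data known. All members are named; from each list at most 4 genes per comparison may be named, those called with the smallest adjusted p, and 3 most similar genes per member. One item is not reported here. CPM values are TMM-scaled; replicates are numbered in accession order.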

Additional observations from a re-analysis of the deposited data

Results flagged for a closer look

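In 4 cases 1 library lay far from the other 4 of its group, by a gap-to-range test (Dixon, critical value 0.71) that chance passes in about 1 in 20 groups. With 6 groups looked at per member, a few such cases come about by chance alone. Bcl2 stood at 16.9 CPM in BALB/c DTC replicate 5 and Mcl1 at 256 CPM in BALB/c DTC replicate 2. Bbc3 stood at 7.17 CPM in NSG DTC replicate 3 and at 8.26 CPM in NSG macro-met replicate 5.

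The change between stages differed between the strains by edgeR's interaction test in 13 cases (log2, BALB/c minus NSG). Of all genes, 33.4% were called from tumour to DTC, 28.1% from DTC to macro-met and 5.23% from tumour to macro-met. From tumour to DTC the differences were -1.31 for Bcl2, 0.98 for Bax, 0.89 for Bak1, 1.92 for Bbc3 and 0.79 for Bad. From DTC to macro-met they were 1.23 for Bcl2, -0.82 for Bcl2l1, -1.02 for Bax, -0.79 for Bak1, -0.85 for Bbc3 and -0.86 for Bad. With GC and length offsets Bcl2 alone of these 6 kept its call. From tumour to macro-met they were -0.72 for Bcl2l1 and 1.07 for Bbc3. Of 20 fits without 1 library, 9 lost the call for Bcl2l1 and 12 that for Bbc3.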

How the results depend on the processing

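Over the settings other than single libraries left out, 1257 values of single genes kept their direction and side of the threshold, 39 lost a call, 17 gained one and 2 reversed. The 2 were Bak1 (-0.38) and Bbc3 (-0.56) from NSG DTC to macro-met with GC and length offsets. With those offsets 3 members were called between DTC of the 2 strains, and 1 member and 2988 genes in the strain difference from DTC to macro-met. The marker covariate left 0 members and 676 genes in NSG DTC against tumours, and 1 member each in macro-mets between strains and in the strain difference from tumour to macro-met. That last count was also 1 with RLE scaling, with no filter and without the 5 libraries that stand apart, an alternative chosen after seeing the data; DESeq2 called 1612 genes there, against 929. In macro-mets between strains DESeq2 called 1 member and 924 genes, and the compared groups alone gave 1 and 887, against 0 and 470. Tumours between strains had 1 member called on log2(TPM + 1) and 1 on log2(TPM + 0.1). Without 1 library, members called ranged from 1 to 2 (NSG DTC against tumours; also tumours between strains), 4 to 7 (DTC between strains, lowest without BALB/c DTC replicate 5), 0 to 1 (macro-mets between strains, 1 without NSG macro-met replicate 2) and 0 to 2 (strain difference from tumour to macro-met, 0 without replicate 3 of BALB/c tumours, 1 of NSG tumours, or 1 or 5 of BALB/c macro-mets). On log2(TPM + 1) the share of called genes that were higher went from 53.9% to 68.3% (BALB/c macro-met against DTC), 51.8% to 63.6% (BALB/c macro-met against tumour), 62.6% to 86.4% (NSG DTC against tumour), 48.7% to 35.4% (NSG macro-met against DTC), 44.2% to 21.8% (DTC between strains), 44.9% to 24.0% (strain difference from tumour to DTC) and 58.8% to 84.8% (from DTC to macro-met), and with DESeq2 from 71.3% to 59.4% (macro-mets between strains) and 67.5% to 53.9% (strain difference from tumour to macro-met). The median of all genes moved by over 0.1 on the log2 scale with offsets for tumours between strains (-0.11) and the strain difference from tumour to DTC (0.15), and on log2(TPM + 1) for NSG DTC against tumours (0.12), DTC between strains (-0.14) and the strain differences from tumour to DTC (-0.10) and DTC to macro-met (0.18). The causes were not tested. No paired analysis was possible because the titles give the groups no shared replicate numbers. Pmaip1 had at most 53 counts in any library.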
